A study of Homo sapiens with 2 samples.

Results

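Small nucleolar RNAs (snoRNAs) and small Cajal body RNAs (scaRNAs) were examined in RKO, a human colon carcinoma cell line, after loss of the splicing factor SRSF2. The rows were taken by name, as symbols that start with SNORA, SNORD or SCARNA, and were then selected on their measured counts, since a row had to hold 10 or more counts over both libraries. This left 148 of 463 such rows, in a table of 54261 rows. They were 58 of 133 SNORA rows, 84 of 302 SNORD rows and 6 of 28 SCARNA rows. The cells were transiently transfected with si-NC, a control siRNA, or si-SRSF2, which targets SRSF2, and taken 2 days later, as the study's workflow gives it. Each group had 1 library, so no difference has a replicate check, no test was made, and every interval below covers counting error only. In such bulk samples, fewer cells with an RNA and less RNA per cell cannot be told apart.

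Most snoRNAs sit in introns of other genes and are cut out of the spliced intron. Box H/ACA snoRNAs (SNORA) guide the change of uridine to pseudouridine, and box C/D snoRNAs (SNORD) guide the addition of methyl groups to riboses, mainly on ribosomal RNA in the nucleolus. The scaRNAs carry the same boxes but gather in Cajal bodies, where their targets are the spliceosomal snRNAs. The libraries were made with a kit that selects RNA with a poly(A) tail, which mature snoRNAs lack. Their summed counts were small, at 6608 with si-NC and 4590 with si-SRSF2, or 0.0332% and 0.0316% of the counted reads. A read from an unspliced or retained host intron that covers a snoRNA carries the same bases as the snoRNA, and both sources cannot be told apart in these counts.

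Members on which the results turn, and others for comparison, are printed here 5′ to 3′, with spans from RefSeq on GRCh38.p14 and bases from GRCh38. Capitals mark the C box and D box of SNORD RNAs, or the ACA box of SNORA and SCARNA RNAs, where a script found them. SNORA40, SNORD5 and SNORA8 are among the most abundant RNAs of the TAF1D gene and were all lower in the si-SRSF2 library, at chr11:93735110-93735236, chr11:93733228-93733300 and chr11:93732361-93732499 on the minus strand.
SNORA40: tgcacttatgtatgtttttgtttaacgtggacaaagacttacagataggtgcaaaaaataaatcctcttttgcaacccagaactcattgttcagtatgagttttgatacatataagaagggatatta
SNORD5: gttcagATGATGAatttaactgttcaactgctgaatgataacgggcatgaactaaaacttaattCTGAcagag
SNORA8: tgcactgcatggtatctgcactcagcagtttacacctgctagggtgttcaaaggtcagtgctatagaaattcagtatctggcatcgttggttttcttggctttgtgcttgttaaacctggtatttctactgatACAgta

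SNORD80 (chr1:173864833-173864903, minus strand), SNORD25 (chr11:62855565-62855631, minus strand) and SNORA9 (chr7:44985378-44985510, minus strand) are the members of lncRNA hosts with 30 or more counts whose intervals lay below 0. SNORD31 (chr11:62853326-62853393, minus strand) is shown because it shares the host of SNORD25 and went the other way.
SNORD80: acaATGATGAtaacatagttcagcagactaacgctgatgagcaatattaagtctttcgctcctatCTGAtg
SNORD25: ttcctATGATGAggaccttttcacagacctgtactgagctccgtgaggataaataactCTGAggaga
SNORD31: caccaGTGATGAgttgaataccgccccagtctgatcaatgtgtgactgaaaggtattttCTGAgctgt
SNORA9: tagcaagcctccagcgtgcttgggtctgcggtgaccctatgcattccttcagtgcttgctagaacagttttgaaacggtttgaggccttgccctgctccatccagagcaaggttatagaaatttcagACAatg

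SNORA104 (chr19:14622213-14622351, plus strand) is shown because it held more counts than any other member, and SCARNA22 (chr4:1974636-1974760, plus strand) is an example of a scaRNA. The scaRNA sum turns more on SCARNA10, the only scaRNA whose interval lay above 0, which is not printed.
SNORA104: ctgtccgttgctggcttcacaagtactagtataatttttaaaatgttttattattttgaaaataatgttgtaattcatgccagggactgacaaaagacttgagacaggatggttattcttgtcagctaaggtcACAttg
SCARNA22: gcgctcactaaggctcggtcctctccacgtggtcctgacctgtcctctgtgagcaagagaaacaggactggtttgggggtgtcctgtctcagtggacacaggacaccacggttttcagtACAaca

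The class names were checked against the boxes. The C box was searched as ATGATGA or GTGATGA starting within the first 20 bases and the D box as CTGA within the last 20 bases, on the RNA's strand, and both were found in 54 of 84 SNORD members (64.3%) and in 0 of 58 SNORA members. The ACA box, with 2 to 5 bases after it, was found in 52 of 58 SNORA members (89.7%), 7 of 84 SNORD members (8.33%) and 3 of 6 SCARNA members. In the window of equal length just downstream of each member, C and D boxes together were found in 0 of 84 SNORD windows and the ACA box in 5 of 58 SNORA windows (8.62%). SNORA40 was among the members without a match, which says only that these letters are not at that place. The strand of 17 members came from these boxes, since no table gave it, so the boxes are no check for them. The median length was 135 bases for SNORA, 80 for SNORD and 200.5 for SCARNA members, against a read length of 150 bases.

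The si-NC library held 19931360 counts and the si-SRSF2 library 14512802, and a count of 0 allows up to 3 counts, or 0.151 and 0.207 CPM (counts normalised to library size). SRSF2 itself had 1964 counts with si-NC and 713 with si-SRSF2, or 98.5 and 49.1 CPM, and the log2 ratio was -0.997 (95% interval -1.13 to -0.88). Of the epithelial markers, KRT18 had 632 and 477 counts, KRT8 547 and 618 and EPCAM 179 and 147, while CDH1 had 10 and 6, CLDN7 had 4 in each library and KRT19 had 1 in each. The intestinal marker CDX2 had 212 and 158 counts, VIL1 1 in each library, and LGALS4 and KRT20 were at 0. Markers of blood, stroma and endothelium (PTPRC, CD3E, CD79A, COL1A1, COL3A1, PECAM1 and VWF) had 0 to 13 counts.

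Across all members, ratios lay on both sides of 0, with 76 members higher and 72 lower in the si-SRSF2 library. Here and below a log2 ratio is log2(CPM + 0.5) in si-SRSF2 less that in si-NC, and its interval is the 95% Clopper-Pearson interval of the ratio without the 0.5. Log2 ratios of summed counts are given without the 0.5. The median log2 ratio was 0.02 over the 148 members and -0.02 over all 14854 rows with 10 or more counts. At least 2-fold higher were 4 members (2.70%), against 1.52% of all rows, and at least 2-fold lower were 3 members (2.03%), against 0.734% of all rows. Of the 4 higher members, SCARNA10, SNORA80B and SNORA71D had fewer than 10 counts with si-NC and passed the minimum only with their si-SRSF2 counts. The interval lay above 0 for 12 members (8.11%), against 19.5% of all rows, and below 0 for 13 members (8.78%), against 23.4% of all rows. These shares are not matched for depth, and an interval narrows with more counts. At 100 or more counts were 11184 of the 14854 rows but only 16 of the 148 members. These counts describe the 2 libraries and not the conditions.

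The count of a row set how far its ratio could be read. At 10 to 29 counts, 4 of 80 members passed 2-fold in either direction, against 7.5% of all rows at that depth. At 30 to 99 counts it was 3 of 52 members, against 7.18%. At 100 or more counts it was 0 of 16 members, against 0.581%, but 12 of these 16 were lower, where 55.0% of all such rows were lower. The median log2 ratio of these 16 was -0.27, against -0.03 for all rows of that depth. The 7 of them whose intervals lay below 0 were SNORA40, SNORA8, SNORA18, SNORD5, SNORD25, SNORD80 and SNORD143, and 4 of these 7 lie in TAF1D. Over all depths 23.4% of all rows had such an interval. The share among rows with 100 or more counts was not counted, so whether 7 of 16 is unusual cannot be said. Since the minimum was set on the sum of both libraries, 82 members had 10 or more counts in each library, 35 in one library and 31 in neither.

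**Figure D1:**
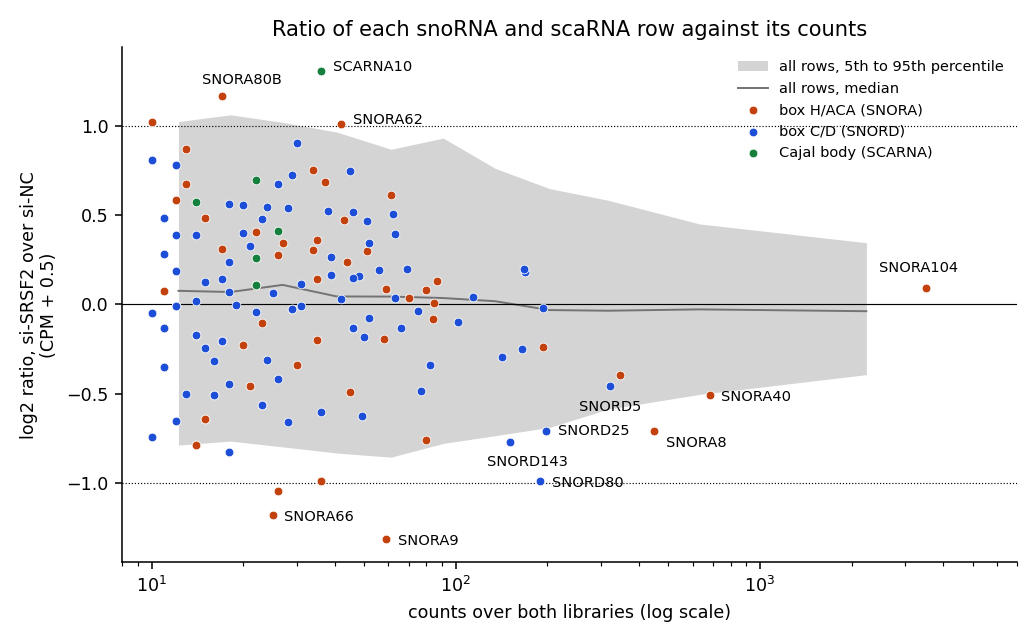
Log2 ratio (si-SRSF2 over si-NC) (vertical axis) against counts over both libraries (horizontal log axis) for the 148 members, coloured by class; the grey band spans the 5th to 95th percentile of all rows of like counts, the grey line is their median and the dotted lines mark 2-fold. Members spread to both sides at few counts, and of the 16 with 100 or more counts 12 lie below 0.

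The classes were compared by their sums and medians. The SNORA members summed to 4093 counts with si-NC and 2830 with si-SRSF2, or 205.4 and 195.0 CPM, a log2 ratio of the sums of -0.07 (-0.14 to -0.01). The SNORD members summed to 2458 and 1675 counts, or 123.3 and 115.4 CPM, a log2 ratio of -0.10 (-0.19 to -0.01). The SCARNA members summed to 57 and 85 counts, or 2.86 and 5.86 CPM, a log2 ratio of 1.03 (0.53 to 1.54), or 0.92 with the 0.5 CPM added. The SNORA and SNORD intervals overlapped nearly throughout, and the SCARNA interval lay above both. The median log2 ratio was -0.02 for SNORA, 0.01 for SNORD and 0.49 for SCARNA, and 28 of 58, 42 of 84 and 6 of 6 members were higher. SCARNA10 and SCARNA12, with 9 and 8 counts in si-NC, reached the minimum of 10 only through si-SRSF2. The 6 of 6 and the SCARNA sum therefore carry no weight as a class difference. With the 0.5 CPM added, all 7 members past 2-fold were SNORA or SCARNA RNAs, and the SNORD ratios ran from -0.99 to 0.91. This is no class difference, since without the 0.5 CPM SNORD80 was at -1.10 and SNORD18C at 1.46.

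**Figure D2:**
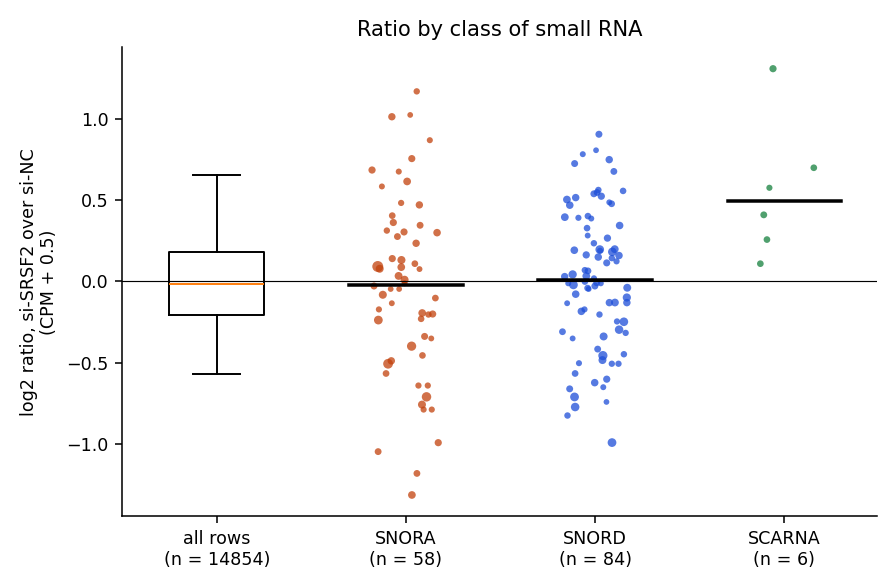
Log2 ratio (si-SRSF2 over si-NC) for each SNORA, SNORD and SCARNA member (points, larger for more counts; black bars, medians) beside all 14854 rows with 10 or more counts (box, quartiles and median; whiskers, 5th and 95th percentiles). The SNORA and SNORD medians lie near 0 (-0.02 and 0.01) and the 6 SCARNA points all lie above 0.

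Per length, the levels of the classes overlapped widely in both libraries. The median CPM per kilobase was 5.70 with si-NC and 6.26 with si-SRSF2 for SNORA, 9.61 and 10.4 for SNORD, and 1.81 and 5.10 for SCARNA members. In si-NC the highest levels were those of SNORA104 (714.0 CPM per kilobase), SNORA40 (179.0), SNORD5 (145.0), SNORA8 (112.6), SNORD25 (104.1) and SNORD80 (99.6). In si-SRSF2 the same 6 stood at 761.4, 124.8, 103.8, 67.4, 60.7 and 46.6 CPM per kilobase. Only SNORA104 among these 6 was not lower, and its level rested on reads that may belong to another gene.

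SNORA104 held 50.8% of all SNORA counts, with 1978 with si-NC and 1536 with si-SRSF2, and a log2 ratio of 0.09 (-0.00 to 0.19). Bases 29 to 139 of its 139 bases, 111 bases in all, match the mRNA of ITGB1, the integrin beta-1 subunit, at 99.1% identity in the same orientation. ITGB1 had 70057 and 56428 counts, a log2 ratio of 0.15 (0.13 to 0.16). The strand of SNORA104 came from its ACA box alone, so the orientation of the match is uncertain. No host gene was found for SNORA104 on that strand, and the counts cannot be divided between the snoRNA row and the mRNA. Without SNORA104 the SNORA members summed to 2115 and 1294 counts and the log2 ratio of the sums was -0.25 (-0.35 to -0.15), so this 1 member moved the SNORA sum by more than its interval.

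TAF1D, which encodes a subunit of a selectivity factor for RNA polymerase I, holds 8 members in its introns, more than any other host, and they took 19.5% of all member counts. The host had 2751 counts with si-NC and 1908 with si-SRSF2, a log2 ratio of -0.07 (-0.16 to 0.01). Its 8 members summed to 1439 and 746 counts, a log2 ratio of -0.49 (-0.62 to -0.36), wholly below the interval of the host. The snoRNA sum was lower relative to the host, and without SNORA40, its most abundant member, it was still -0.48 (-0.63 to -0.32).

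SNORA40, the nearest to the 5′ end, had 453 counts with si-NC and 230 with si-SRSF2, a log2 ratio of -0.51 (-0.76 to -0.29). SNORA18 had 224 and 122 counts (-0.40, interval -0.75 to -0.09), and SNORD5, the next along the gene, 211 and 110 (-0.46, interval -0.83 to -0.14). SNORA8 had 312 and 136 counts and the lowest log2 ratio of the group on this scale, -0.71 (-1.04 to -0.45). These 4 intervals all lay below 0. The 4 members nearer the 3′ end had fewer counts, and each of their intervals held 0. They were SNORA1 with 36 and 22 counts, SNORD6 with 35 and 14, SNORA32 with 120 and 73, and SNORA25 with 48 and 39. SNORA25 was the only one of the 8 with a positive log2 ratio, 0.13 (-0.49 to 0.80). Other transcripts annotated for TAF1D have an exon over 7 of the 8 members, all but SNORD6, and SNORA40, SNORA8, SNORA18 and SNORA1 have a copy elsewhere in the genome at 92.4% to 96.1% identity.

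GAS5, a lncRNA gene whose spliced RNA is short-lived, holds 6 SNORD members, and 1 of them set their sum. SNORD80 had 141 counts with si-NC and 48 with si-SRSF2, a log2 ratio of -0.99 (-1.60 to -0.62), while GAS5 had 3316 and 2404, a log2 ratio of -0.01 (-0.08 to 0.07). The other 5, SNORD74, SNORD76, SNORD44, SNORD78 and SNORD79, had log2 ratios from -0.08 to 0.56 with intervals that held 0. The sum over all 6 was 230 and 127 counts (-0.40, interval -0.72 to -0.08), and without SNORD80 it was 89 and 79 counts (0.29, interval -0.17 to 0.74).

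SNHG1, a further lncRNA host, gave a similar split within 1 gene. SNORD25 had 139 and 59 counts, a log2 ratio of -0.71 (-1.24 to -0.33), and SNORD26, which lies next to it, had 15 and 3. SNORD31 had 91 and 77 counts (0.20, interval -0.24 to 0.67), SNORD28 31 and 32, and SNORD22 44 and 31 (-0.04, interval -0.76 to 0.65). SNHG1 itself had 1602 and 1094 counts, a log2 ratio of -0.09 (-0.20 to 0.02). The intervals of SNORD25 and SNORD31 did not overlap, although both are excised from the same host RNA.

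**Figure D3:**
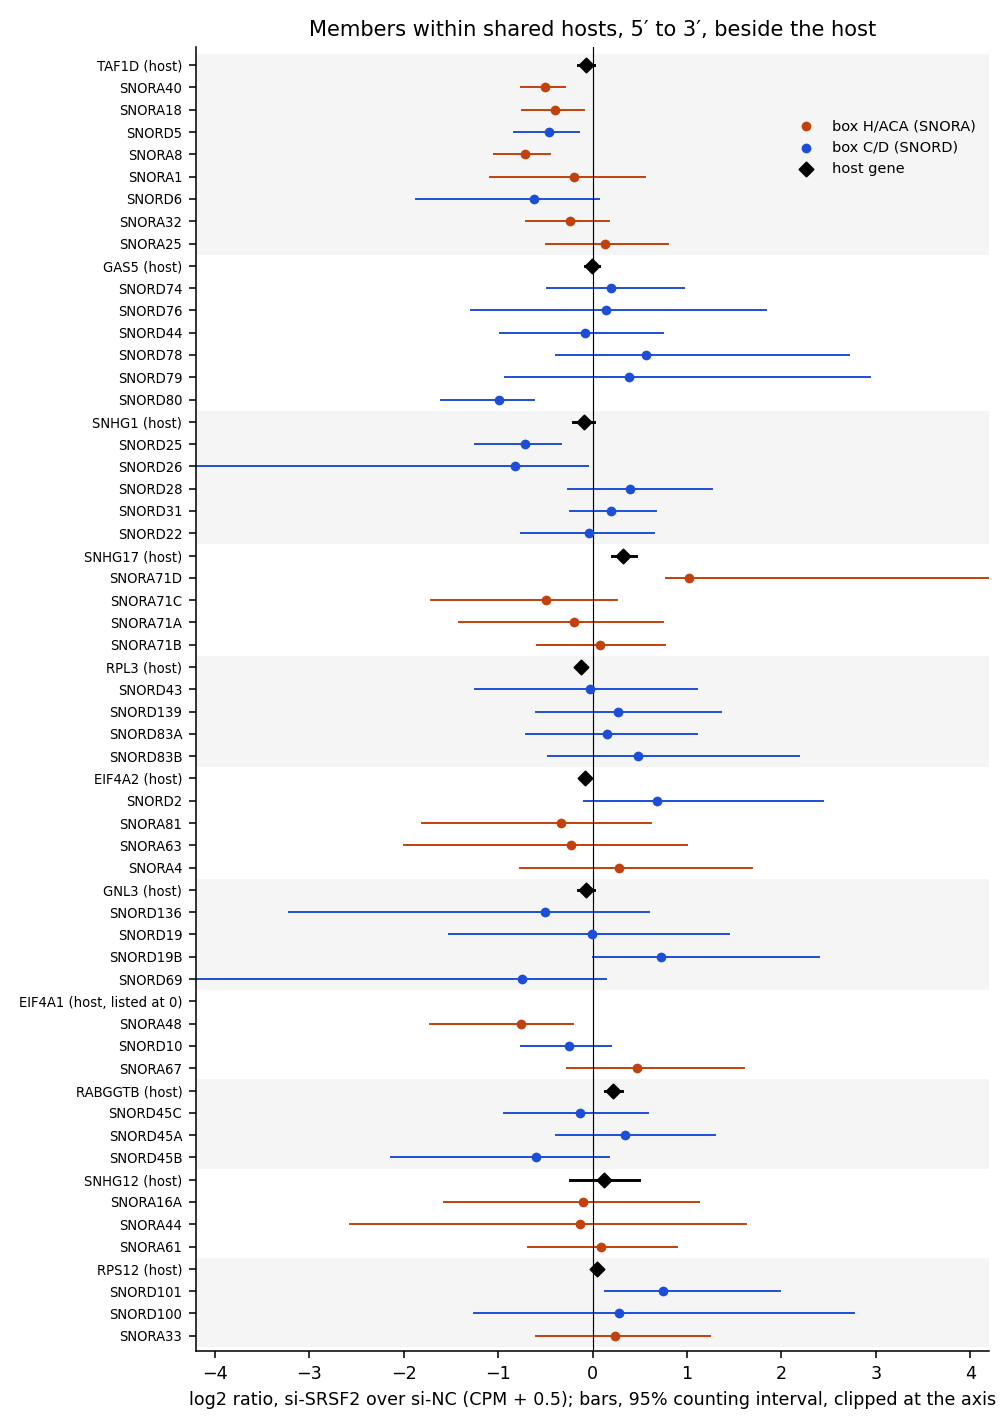
Log2 ratio (si-SRSF2 over si-NC) (horizontal axis) for 11 hosts that hold 3 or more members (black diamonds) and for their members in order from the 5′ to the 3′ end (orange, SNORA; blue, SNORD); bars are 95% counting intervals, clipped at the axis. The points of the first 4 members of TAF1D, of SNORD80 in GAS5 and of SNORD25 in SNHG1 are among those left of their hosts. The intervals of SNORA18 and SNORD5 overlap that of TAF1D. EIF4A1 has no value because it was listed at 0.

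In most of the other hosts with 3 or more members the interval of the sum held 0. The members of SNHG17 summed to 99 and 71 counts, those of RPL3 to 72 and 65, of EIF4A2 to 56 and 46, of GNL3 to 43 and 31, of RABGGTB to 92 and 62, and of SNHG12 to 54 and 39, and these 6 intervals all held 0. In RPS12, which encodes a ribosomal protein, the 3 members summed to 46 and 54 counts, a log2 ratio of 0.69 (0.09 to 1.29), beside 0.05 (0.01 to 0.09) for the host. SNORD101, with 18 and 27 counts, led this sum, and the intervals of SNORA33 (23 and 21) and SNORD100 (5 and 6) held 0. In EIF4A1 the 3 members summed to 181 and 107 counts (-0.30, interval -0.66 to 0.05), and the host was listed at 0 in both libraries, so no ratio could be set beside them. Outside TAF1D, the 140 other members summed to 5169 and 3844 counts, a log2 ratio of 0.03 (-0.03 to 0.09).

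Over all hosts, 146 of the 148 members lay within a gene on the same strand, 145 in an intron and 1 in an exon of its main transcript. For SCARNA9, SNORD143 and SNORD144 the strand was itself taken from the host, so the shared strand was fixed for them. Counting every annotated transcript, 91 of the 148 members overlap an exon on their strand. These were 86 hosts, of which 52 held 1 member. Between the log2 ratios of members and hosts, Pearson's r was -0.09 and Spearman's rho -0.11 over the 142 members whose 84 hosts had 10 or more counts, given as a description because members of a host share it. Of these 142 members, 8 had an interval wholly below that of the host and 9 wholly above it.

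SNORA9 is the 1 member that lies in an exon of its host's main transcript, that of the lncRNA gene SNHG15, and it had the lowest ratio with the 0.5 CPM, though not without it. It had 49 counts with si-NC and 10 with si-SRSF2, a log2 ratio of -1.32 (-2.98 to -0.84), while SNHG15 had 514 and 448, a log2 ratio of 0.25 (0.07 to 0.44). Among the 5 lowest SNORA ratios at 30 or more counts were also those of SNORA52 in RPLP2 (29 and 7 counts, log2 ratio -0.99) and SNORA48 in EIF4A1 (58 and 22, -0.76). The 5 lowest SNORD ratios at 30 or more counts were those of SNORD80, SNORD25 and SNORD6, given above, of SNORD143 in SEC31A (108 and 43 counts, log2 ratio -0.77, interval -1.42 to -0.35) and of SNORD45B in RABGGTB (26 and 10, -0.60). The strand of SNORD143 was taken from its host, so its link to SEC31A is uncertain. SNORA66 in RPL5, with 22 and 3 counts, and SNORA69 in RPL39, with 22 and 4, also passed 2-fold and were named after their values were seen.

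On the higher side the members had few counts. SNORA62 in RPSA had 14 counts with si-NC and 28 with si-SRSF2, a log2 ratio of 1.01 (0.48 to 2.50), and SNORA50A in CNOT1 had 13 and 21 (0.76). SNORA27 in RPL21 had 15 and 22 counts, SNORA67 in EIF4A1 20 and 23, and the intervals of both held 0. At 30 or more counts the SNORD members with the highest ratios were SNORD18C in RPL4 (10 and 20 counts, 0.91, interval 0.30 to 2.72), SNORD101 in RPS12 (18 and 27, 0.75, interval 0.13 to 1.99) and SNORD15A in RPS3 (17 and 21, 0.53). SNORA80B, with 3 and 14 counts, and SNORA71D, with 1 and 9, also passed 2-fold and were named after their values were seen; each rests on so few counts that the intervals ran from 0.84 to 5.12 and from 0.78 to 9.08.

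The snoRNAs that act in the cleavage of pre-ribosomal RNA were followed as a group of their own. SNORA73A and SNORA73B, the U17 RNAs, which were placed in introns of RCC1, had 27 and 34 counts and 26 and 25 counts, with log2 ratios of 0.62 (0.02 to 1.58) and 0.30 (-0.45 to 1.25). SNHG3 has an exon over SNORA73A on the same strand. Where genes overlap, a protein-coding gene was preferred as host, so the host of this pair is uncertain. SNORD14A and SNORD14B, U14 RNAs of RPS13, had 21 and 25 and 29 and 33 counts, with log2 ratios of 0.52 and 0.50. SNORD14D and SNORD14E, U14 RNAs of HSPA8, had 6 and 8 and 12 and 16 counts, with log2 ratios of 0.39 and 0.54. SNORD22, the U22 RNA of SNHG1, was at -0.04, and SNORD3A, a copy of U3, had 7 and 5 counts, a log2 ratio of -0.01 (-2.03 to 1.84). Of these 8 members 6 were above 0, and 7 of the 8 intervals held 0. Of all rows at 10 to 29 counts 44.6% were lower, and at 30 to 99 counts 46.0%. The U14 RNAs lie in pairs in RPS13 and HSPA8, so the 8 are not separate observations. SNORD3B-1 had 2 and 0, and SNORD3B-2, SNORD3C, SNORD3D, SNORD118 (U8) and SNORD13 (U13) were at 0 in both libraries. The U3 copies are nearly identical (99.5% for SNORD3A and SNORD3B-1), so the counts of each copy are uncertain.

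Most of the remaining abundant members differed little. SNORD62B had 113 and 81 counts, SNORD17, the longest box C/D member, 92 and 77, SNORD10 103 and 62, SNORA72 49 and 36, and SNORA70 50 and 34, with log2 ratios from -0.25 to 0.18 and intervals that held 0. SNORD62A has the same 86 bases as SNORD62B and had 14 and 11 counts, so the division between the pair is uncertain.

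The 6 SCARNA members were all higher in the si-SRSF2 library on few counts. SCARNA10 and SCARNA12 reached the minimum of 10 counts only through that library, so this carries no weight as a class difference. SCARNA10, in NCAPD2, had 9 counts with si-NC and 27 with si-SRSF2, or 0.452 and 1.86 CPM, a log2 ratio of 1.31 (0.91 to 3.32), and its host had a log2 ratio of -0.09 (-0.15 to -0.02). SCARNA12 in PHB2 had 8 and 14 counts, SCARNA8 in HAUS6 5 and 9, SCARNA9 in CEP295 12 and 14, SCARNA22 in NSD2 11 in each library, and SCARNA27 in EEF1E1 12 and 10. Equal or fewer counts gave a higher ratio in the last pair because the si-SRSF2 library was smaller. The intervals of these 5 held 0, and without SCARNA10 the class summed to 48 and 58 counts, a log2 ratio of 0.73 (0.15 to 1.31). In the 13 SCARNA rows with 1 to 9 counts, 7 were higher and 6 lower, and their sums of 32 and 32 counts gave a log2 ratio of 0.46 (-0.30 to 1.21).

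The rows under the minimum were counted too. Of the 463 rows, 227 had no count in either library (48 SNORA, 170 SNORD and 9 SCARNA) and 88 had 1 to 9. The 27 SNORA rows with 1 to 9 counts summed to 43 and 54 (log2 ratio 0.79, interval 0.18 to 1.40) and the 48 SNORD rows to 109 and 91 (0.20, interval -0.22 to 0.61). Just inside the minimum, at 10 counts, were SNORD42A (2 and 8), SNORD67 (6 and 4), SNORD69 (9 and 1), SNORA71D (1 and 9), SNORA5B (6 and 4) and SNORA77 (6 and 4), and just outside it, at 9, were SCARNA4 (3 and 6), SNORD38A (3 and 6), SNORD13P2 (4 and 5), SNORD47, SNORD18B and SNORA92 (5 and 4 each) and SNORD93 (8 and 1).

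The protein genes of snoRNPs went both ways. Of the 4 box H/ACA core proteins, DKC1, the pseudouridine synthase, had 1737 and 1445 counts (log2 ratio 0.19, interval 0.09 to 0.29) and GAR1 906 and 572 (-0.20, interval -0.36 to -0.05), and the median log2 ratio was 0.08. Of the 4 box C/D core proteins the median was -0.06, with NOP56 at -0.07 and NOP58 at -0.05. FBL, the methyltransferase fibrillarin, had only 31 and 10 counts (-0.79, interval -2.37 to -0.11), and since so low a count is not explained by the sources used here, its ratio is uncertain. Over the 11 assembly factors the median was -0.11, from ZNHIT6 at -0.35 (-0.49 to -0.21) to ZNHIT3, with 16 and 19 counts, at 0.47, and the helicases RUVBL1 and RUVBL2 were both at 0.29. Of these 19 genes 5 had intervals above 0 and 4 below, where 19.5% and 23.4% of all rows did. None passed 2-fold, where 1.52% of all rows were higher and 0.734% lower. These counts do not set the lists apart from other genes.

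The Cajal body genes held 1 larger difference. NOLC1, a nucleolar and coiled-body phosphoprotein that binds snoRNPs, had 1173 counts with si-NC and 1610 with si-SRSF2, a log2 ratio of 0.91 (0.80 to 1.02), just under 2-fold. TCOF1, its partner at the ribosomal RNA genes, had 1821 and 1826 (0.46, interval 0.37 to 0.56), while COIL, the scaffold of Cajal bodies, had 598 and 383 (-0.18, interval -0.37 to 0.00) and WRAP53, which brings box H/ACA scaRNAs there, had 436 and 334 (0.07, interval -0.14 to 0.28). The median of the 11 measured genes was 0.11, and 0 passed 2-fold. Over 16 processing and decay genes the median was -0.04 and 0 passed 2-fold. Of all rows 1.52% were at least 2-fold higher and 0.734% at least 2-fold lower, so 0 in lists this short is no result about them. DBR1, which opens intron lariats, had 415 and 307 counts (0.02, interval -0.19 to 0.24), and XRN2, a nuclear exonuclease, 5207 and 3252 (-0.22, interval -0.29 to -0.16). The lowest ratios were those of PARN, a deadenylase that trims small RNA ends, with only 28 and 9 counts (-0.77, interval -2.45 to -0.06), and PABPN1, the nuclear poly(A)-binding protein, with 137 and 64 (-0.59, interval -1.09 to -0.20).

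Of 25 other RNAs without a poly(A) tail, 4 had 10 or more counts. RMRP, the RNA of RNase MRP, had 10 counts with si-NC and 230 with si-SRSF2, and RN7SK, which holds the elongation factor P-TEFb, had 50 and 357. Without the pseudocount their log2 ratios were 4.98 (4.08 to 6.06) and 3.29 (2.86 to 3.75). RPPH1, the RNA of RNase P, had 1 and 104 counts (interval 4.65 to 12.5), and TERC, the telomerase RNA, which has a box H/ACA domain and passes through Cajal bodies, had 1 and 14 (interval 1.55 to 9.67). RPPH1 and TERC passed the minimum only through the si-SRSF2 library, so a count of higher genes in this list carries no weight. Each of these genes has its own promoter, whereas 146 of the 148 members lie within a host. How much RNA without a poly(A) tail entered each library was not measured, and its part in the SCARNA ratios was not tested.

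**Figure D4:**
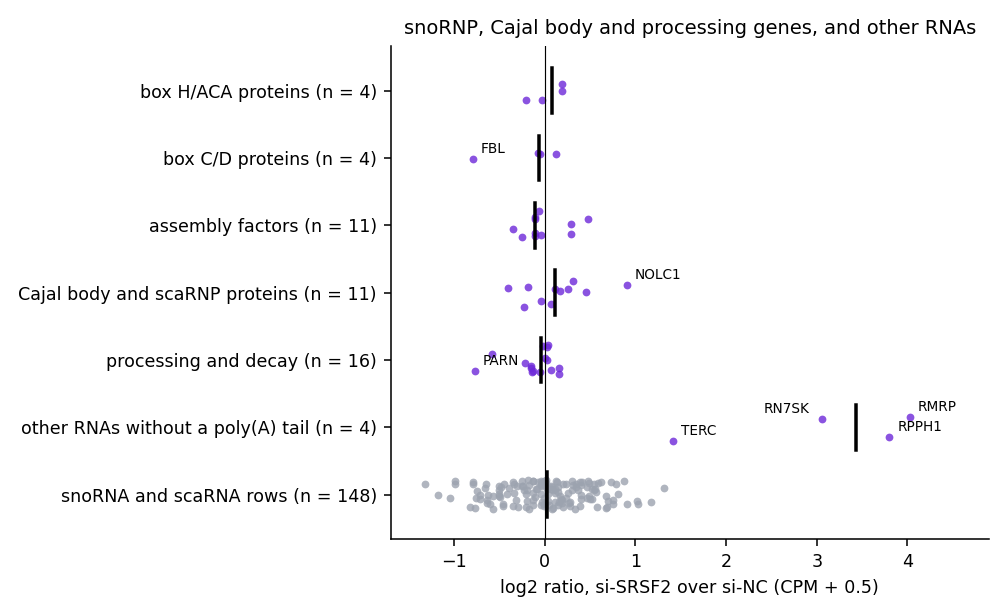
Log2 ratio (si-SRSF2 over si-NC) for genes with 10 or more counts in lists of snoRNP, assembly, Cajal body and processing genes, for other RNAs without a poly(A) tail, and for the 148 snoRNA and scaRNA rows (points; black bars, medians). The 4 other RNAs lie above 1, NOLC1 lies at 0.91, and the medians of the protein lists lie between -0.11 and 0.11.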

How the data were processed

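RNA of 1 si-NC and 1 si-SRSF2 sample of RKO cells was sequenced as stranded poly(A) libraries with 150 bp paired reads. The authors aligned reads to GRCh38 with HISAT2 (version 2.0.4 in the submitters' processing notes), counted them with HTSeq and deposited raw counts per gene symbol. The strand and overlap settings of the counting are not given in the sources used here, so overlapping and near-identical genes are uncertain. The members and lists were chosen with earlier results of these data known.

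Counts were scaled with edgeR 4.0.16 (TMM, R 4.3.3) to CPM with a pseudocount of 0.5, and intervals came from SciPy 1.17.1. With 1 library per group no test was run. The ratios and intervals were run on simulated counts that held counting error only, which is what the intervals assume. That run gives no measure of variation between libraries. Spans came from RefSeq, hosts and exons from GENCODE release 44 and copies from edlib and BLAST+ 2.17.0, and all 148 members were placed. Named were all SCARNA members, the 8 SNORA and 8 SNORD members with the most counts, the 5 largest rises and falls of each at 30 or more counts, the RNAs of pre-ribosomal RNA cleavage, SNORD22, and hosts of 3 or more members with those members. The result for 1 host gene is not reported here. Alternatives were other scalings (DESeq2 1.42.0 among them), pseudocounts, minimum counts and exclusions.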

Additional observations from a re-analysis of the deposited data

How the results depend on the processing

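No paired analysis was possible because there was 1 library in each group, and no library could be left out. The counts of members past 2-fold depended on the pseudocount: with 0.1 CPM 14 were higher and 12 lower, and with 2 CPM 0 and 0. With mitochondrial and the 20 most abundant genes left out, 5 members were lower, since the smaller library sizes raise CPM against a fixed pseudocount. A minimum of 30 counts left 2 higher and 1 lower, and one of 100 left 0 and 0, since fewer rows were counted. Without members that overlap an exon of another gene, 1 was higher and 1 lower.

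At a minimum of 30 counts the median was 0.056 for SNORA, and for SCARNA the median of 1.31 and the sum of 2.04 (no pseudocount) were those of SCARNA10 alone. At 100 counts the medians were -0.40 for SNORA and -0.25 for SNORD, and the SNORD sum was -0.34. Without members that overlap an exon of another gene the SNORA median was 0.077 and the SNORA sum 0.10. The SNORA sum was 0.047 without near-identical copies, which leaves out 4 of the TAF1D members, and -0.25 without SNORA104. At 30 or more counts, an alternative chosen after seeing the data, Pearson's r of members and hosts was -0.20. The SCARNA median was 0.82 with a pseudocount of 0.1 CPM, 0.20 with 2 CPM and 0.26 at a minimum of 1 count, where the SNORA median was 0.048; the SNORD median was -0.01 without members that overlap an exon of another gene. Of 79 members, those named and those of hosts with 3 or more, 2 changed sign, SNORD62B and SNORD19 with upper-quartile factors, both at ratios near 0. With 2 CPM, SCARNA10 was at 0.65, SNORA9 at -0.73, SNORA66 at -0.49, SNORA71D at 0.35 and SNORA80B at 0.46.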

Other observations

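The members were also divided by the kind of host, a split made after the values were seen. The 41 members in 25 genes of ribosomal proteins had a median log2 ratio of 0.14, with 26 higher and 15 lower, and summed to 911 counts with si-NC and 721 with si-SRSF2 (log2 ratio 0.12, interval -0.02 to 0.26). The 75 members in other protein-coding genes, TAF1D among them, had a median of -0.02 and a sum of 2860 and 1793 counts (-0.22, interval -0.30 to -0.13). SNORA73A and SNORA73B, placed in RCC1, were counted with these 75 although their host is uncertain. The 30 members in lncRNA or pseudogene hosts had a median of 0.08 and a sum of 852 and 535 counts (-0.21, interval -0.37 to -0.06). In both of the last sets the median and the sum differed, since a few abundant members led the sum. Among SNORA members outside TAF1D and without SNORA104 the sum was 922 and 672 counts (0.00, interval -0.14 to 0.15), and among SNORD members outside TAF1D, GAS5 and SNHG1, the 3 hosts with the most members, it was 1662 and 1222 (0.01, interval -0.09 to 0.12).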
